A study of Mus musculus with 12 samples.

Results

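The strongest genic R-loop peaks of HEPA1-6 cells are described here. They were chosen from the deposited HEPA1-6 peak list by the authors' score (100 or more), a strand, a width below 8000 bp, a place on chromosomes 1 to 19 and an overlap with a RefSeq gene of assembly GRCm38. Of 28717 HEPA1-6 peaks, 728 had such a score and 482 met the whole rule. Those 482 peaks lay in 460 genes when each peak was assigned to the gene with the most overlapping bases. The score, strand, width and gene overlap chose the peaks, so these are given as description. Position within the gene, gene class, promoter sequence and the liver-labelled list did not enter the rule.

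R-loops form when a transcript pairs with its template DNA strand and leaves the other DNA strand single. They are known from the starts and ends of active genes, often where the transcript is rich in G, and RNase H enzymes and helicases remove them. Strong R-loop signal is commonly met at genes with heavy transcription, such as those for ribosomal proteins and histones.

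HEPA1-6 is a mouse hepatoma cell line, here wild type and untreated, grown in serum-containing medium. The comparison source was liver of wild type, untreated C57/Bl6 mice, whose age the labels do not give. The labels call the cell type of both sources hepatocyte. For each source, 2 S9.6 immunoprecipitates (S9.6 is an antibody that binds RNA-DNA hybrids), 2 immunoprecipitates treated with RNase H1 and 2 inputs were made, 12 libraries in all. Per the peak names, 1 list per source came from a merged immunoprecipitate set against an input, so no value has a replicate check, no p-value can be given, and the depth is unknown. The 95% intervals given with shares are by Wilson's method, take peaks or genes as the units, and cover counting error only; neighbouring peaks are not independent.

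The labelled cell types were set against marker genes. Among 30 apolipoprotein and plasma protein genes, 8 held a HEPA1-6 peak of any score and 6 a liver-labelled peak, and among 23 genes of hepatocyte metabolism 3 and 3 did, against 42.0% and 29.0% of all autosomal protein-coding genes. Hepatocyte transcription factors held peaks more often, 12 of 17 in each list. Neither list had a peak at any of 8 endothelial markers, while 30 of 40 cell cycle genes held one in the liver list. Single hepatocyte genes differed. Cps1 and Apob held no peak in either list, while Alb (highest HEPA1-6 score 670, highest liver-labelled score 54), Apoe (63 and 23) and Glul (46 and 40) held peaks in both. As the markers gave a mixed picture, the second set of peaks is named by its label, as liver-labelled.

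The promoter windows of the 4 highest-scoring peaks that contain the whole window of their gene are shown because these are the strongest peaks with a promoter sequence; with 48 to 55% GC they are poorer in GC than most windows inside high-scoring peaks. Each runs from 250 bases before to 50 bases after a RefSeq start (GRCm38.p6), 5′ to 3′ on the gene's strand. H3f3b codes for the replacement histone H3.3, H1f4 for a linker histone, Rpl13 for a protein of the large ribosomal subunit and Cox7c for a subunit of cytochrome c oxidase. Capitals mark matches, on either strand, to 5 motifs: TATAAA (the TATA box), CCAAT (the CCAAT box), GGGCGG (the GC box), TGACGTCA (the cyclic AMP response element) and CACGTG (the E box). No motif contains another.
H3f3b promoter, chr11:116024455-116024754, minus strand: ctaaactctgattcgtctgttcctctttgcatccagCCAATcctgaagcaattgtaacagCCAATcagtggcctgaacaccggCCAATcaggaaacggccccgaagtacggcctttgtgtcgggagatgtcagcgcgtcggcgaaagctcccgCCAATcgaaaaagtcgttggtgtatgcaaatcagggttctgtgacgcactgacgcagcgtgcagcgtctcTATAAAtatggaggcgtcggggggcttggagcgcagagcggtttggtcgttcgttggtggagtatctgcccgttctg
H1f4 promoter, chr13:23622509-23622808, minus strand: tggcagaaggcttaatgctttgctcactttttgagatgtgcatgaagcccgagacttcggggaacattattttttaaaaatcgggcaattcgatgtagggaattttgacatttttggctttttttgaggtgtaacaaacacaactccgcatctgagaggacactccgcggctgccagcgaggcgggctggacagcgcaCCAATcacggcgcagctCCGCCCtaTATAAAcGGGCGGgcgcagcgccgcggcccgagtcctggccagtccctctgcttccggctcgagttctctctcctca
Rpl13 promoter, chr8:123102100-123102399, plus strand: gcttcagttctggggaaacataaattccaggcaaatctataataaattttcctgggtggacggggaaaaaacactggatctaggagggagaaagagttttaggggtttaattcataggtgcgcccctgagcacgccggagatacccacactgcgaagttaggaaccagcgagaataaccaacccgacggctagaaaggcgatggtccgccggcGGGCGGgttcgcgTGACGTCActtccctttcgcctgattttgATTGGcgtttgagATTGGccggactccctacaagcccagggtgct
Cox7c promoter, chr13:86046746-86047045, minus strand: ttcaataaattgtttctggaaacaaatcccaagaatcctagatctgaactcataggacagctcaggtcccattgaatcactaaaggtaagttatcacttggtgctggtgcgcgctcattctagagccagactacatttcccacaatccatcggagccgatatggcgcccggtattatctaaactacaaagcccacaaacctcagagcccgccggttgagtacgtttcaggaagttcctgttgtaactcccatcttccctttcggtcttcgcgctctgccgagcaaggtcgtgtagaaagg
The H3f3b window held 4 matches to CCAAT and a TATAAA. The H1f4 window held a TATAAA between matches to GGGCGG, with a CCAAT before them, and the Rpl13 window held a TGACGTCA beside matches to GGGCGG and CCAAT. The Cox7c window held no match to these letters.

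Of 31396 autosomal promoter windows in the RefSeq table, which is not complete, 340 lay wholly inside a high-scoring peak and 2918 wholly inside a genic peak of the same rule with a lower score. Windows inside the high-scoring peaks were rich in CpG and GC. Their median GC content was 65.3%, against 64.3% inside lower-scoring peaks and 51.3% in 26432 windows with no HEPA1-6 peak. The observed CpG number was 0.888 of that expected from base composition (median), against 0.829 and 0.318.

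GGGCGG was present in 73.5% of the windows inside high-scoring peaks (95% interval 68.6 to 77.9%), 70.7% inside lower-scoring peaks and 36.0% of all windows. TATAAA was present in 8.24% (5.76 to 11.6%), against 5.72% inside lower-scoring peaks (4.94 to 6.63%) and 13.6% of all windows. TGACGTCA was found in 5.29% (3.37 to 8.21%), against 3.02% inside lower-scoring peaks and 1.83% of all windows. CCAAT was found in 35.6% (30.7 to 40.8%), against 34.1% inside lower-scoring peaks and 37.3% of all windows. CACGTG was found in 10.6% (7.75 to 14.3%), against 10.8% inside lower-scoring peaks and 7.14% of all windows.

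GC skew, the excess of G over C on the gene's strand divided by their sum, had a median of -0.016 over the windows inside high-scoring peaks and 0.013 over all windows. In the 50 bases after the start alone the medians were 0.111 and 0.067, against 0.100 inside lower-scoring peaks. Over whole windows the median under lower-scoring peaks was 0.0098, and the skew was above 0 in 45.9% of the windows inside high-scoring peaks (40.7 to 51.2%), 51.8% inside lower-scoring peaks and 52.8% with no peak.

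The scores fell off steeply. The median was 141.5 (interquartile range 115 to 193, maximum 4359), 369 of the 482 peaks scored below 200, and 11 scored 1000 or more. At the lower edge, peaks at Xbp1 (a transcription factor of the unfolded protein response), Zfr and Gm41664 scored 100, and those just outside, at Txndc9, Tpp2 and Dapk3, scored 99. Widths had a median of 3055.5 bp among them and of 1081 bp among the 24296 genic peaks that met the rest of the rule with a score below 100. Among the 482 peaks, score and width were barely related in rank (Spearman's rho -0.028, across peaks, which are not independent).

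High-scoring peaks sat at the ends of genes, above all at the start. Here a peak at the start overlaps 1 kb on either side of the 5′ boundary of its gene, and a peak at the transcript end does so at the 3′ boundary. Of the 482 peaks, 287 (59.5%, 55.1 to 63.8%) lay at the start, where 14.5% of all 24778 peaks of the rule at any score did. At the transcript end lay 162 (33.6%, 29.5 to 37.9%), against 11.8%. These counts share 92 peaks (19.1%) that reached both boundaries, and 125 (25.9%) reached neither.

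Over all widths the share at the start differed between score classes. It was 13.7% below a score of 100, 39.7% between 50 and 99 and 59.5% at 100 or more. Wider peaks reach a boundary more easily, so the share was also taken within width classes. From 2000 to under 4000 bp, 68.8% of high-scoring peaks (61.5 to 75.2%) and 22.7% of those below 100 (21.5 to 23.99%) lay at the start. From 1000 to under 2000 bp the shares were 51.2% and 14.5%. From 4000 bp on they were 67.6% and 28.1%, and below 1000 bp 19.3% (11.1 to 31.3%) and 6.64%. Peaks of 50 to 99 gave 18.5% below 1000 bp and 51.6% from 2000 to under 4000 bp, so in the narrowest class they could not be told from the high-scoring ones.

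At the transcript end the gap was smaller at equal width. From 2000 to under 4000 bp, 26.0% of high-scoring peaks (20.05 to 33.0%), 19.3% of those of 50 to 99 and 17.3% of all those below 100 lay there, and from 4000 bp on 54.1%, 45.3% and 34.4%. When a peak was placed by its midpoint, 30.7% of the high-scoring peaks lay at the start and 16.6% at the end.

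**Figure D1:**
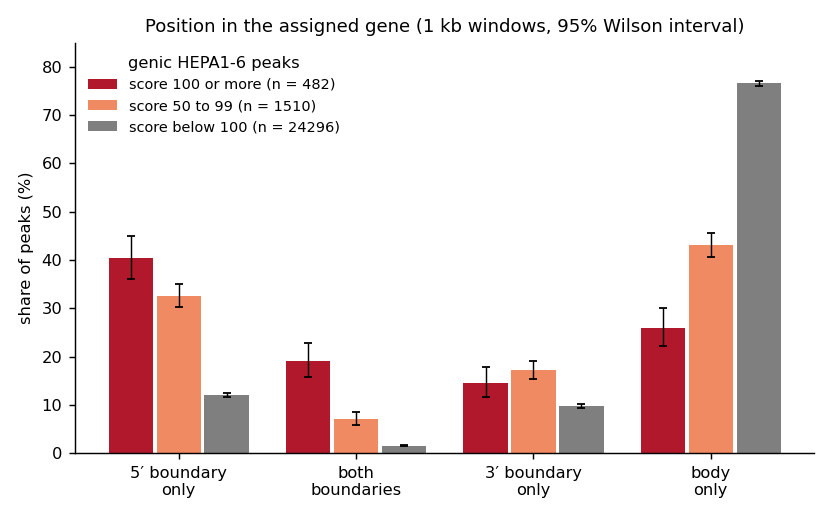
Share of genic HEPA1-6 peaks (y axis, %) that reach only the 5′ boundary, both boundaries, only the 3′ boundary or neither boundary of their gene, within 1 kb, for peaks with a score of 100 or more, of 50 to 99 and of all scores below 100 (which include the second set). Error bars are 95% Wilson intervals. Of the high-scoring peaks 40.5% reach only the 5′ boundary, and of those below 100 76.6% reach neither.

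The position most often covered by a high-scoring peak was 500 bp inside the gene from the 5′ boundary, where 56.2% of them lay. At the 3′ side it was 1000 bp before the boundary, with 30.7%. For scores of 50 to 99 the most covered positions were the same, with 36.4% and 22.0%. Since each peak had to overlap its gene, more coverage inside than outside a boundary is fixed by the rule.

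**Figure D2:**
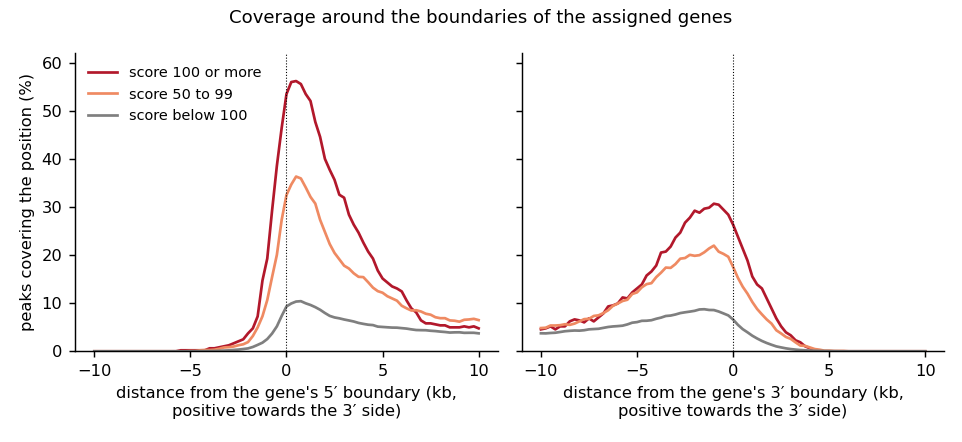
Share of peaks (y axis, %) that cover each position around the 5′ boundary (left) and the 3′ boundary (right) of their assigned gene, in steps of 250 bp, with distance in kb on the x axis. The line of high-scoring peaks is highest 500 bp inside the 5′ boundary, at 56.2%, and on the right 1000 bp before the 3′ boundary, at 30.7%.

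Peaks that reached both boundaries lay in short genes, with a median length of 2886.5 bp, and covered a median of 100% of the gene; the width limit and the 1 kb windows allow no long gene there. Protein-coding genes with a high-scoring peak had a median length of 23218 bp, against 17491 bp over all 20661 autosomal protein-coding genes and 26080 bp for genes with a peak below 100. The gene table used here gives boundaries alone, and exons, introns and untranslated regions were not told apart.

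By gene type, 433 of the 482 peaks (89.8%, 86.8 to 92.2%) were assigned to a protein-coding gene, 32 (6.64%) to a long noncoding RNA gene and 12 (2.49%) to a pseudogene. Below a score of 100 these shares were 96.6%, 2.82% and 0.461%. Noncoding genes and pseudogenes thus made up a larger share of the high-scoring peaks. The remaining 5 peaks were assigned to 3 small nuclear RNA genes and the microRNA genes Mirlet7d and Mirlet7i. Of the assigned genes, 439 held 1 such peak, 20 held 2, and only Tm9sf3, which codes for a transmembrane protein, held 3, with scores of 125, 105 and 102 (36, 53 and 37 in the liver-labelled list).

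Gene lists were then counted. A gene of a list was counted when any high-scoring peak overlapped it, which held for 2.47% of all autosomal protein-coding genes. Of those 20661 genes, 511 were overlapped by a high-scoring peak and 8676 (42.0%) by a HEPA1-6 peak of any score. The lists differed from this too. A peak of any score lay over 93.9% of ribosomal protein, 71.4% of heat shock and 90% of cell cycle genes, so 2.47% is a low reference for such lists. The largest share was that of ribosomal protein genes: 36 of 82 (43.9%, 33.7 to 54.7%) were overlapped. They were led by Rpl13 (HEPA1-6 score 477, liver-labelled score 214, the order used below), Rpl36 (450 and 231, under a peak assigned to its neighbour Lonp1) and Rps23 (435 and 172). A further 12 ribosomal protein genes, Rpl38 with a score of 438 among them, held a peak of 100 or more that was left out only for its width of 8000 bp or more.

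Machinery around the ribosome followed. Of 31 hosts of small nucleolar RNAs (guides of ribosomal RNA modification that are cut from introns), 12 were overlapped (38.7%, 23.7 to 56.2%), led by Eif4a2 (673 and 344), Epb41l4aos (280 and 145) and Ncl (254 and 106). At the level of the guides themselves, 35 of the 482 peaks (7.26%, 5.27 to 9.93%) overlapped a small nucleolar RNA gene, against 0.343% of all peaks of the rule. Ribosomal protein genes lay under 18 of those 35 peaks.

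Of 70 translation factor genes, 12 were overlapped (17.1%, 10.1 to 27.6%). Besides Eif4a2, which codes for an RNA helicase of translation initiation, these included Eif4b (307 and 138) and Eef1a1 and Eef2 (both 303, with liver-labelled scores of 134 and 117). Among 29 nucleolar and RNA polymerase I genes 4 were overlapped: Utp4 (370, under a peak assigned to Chtf8), Ncl, Ddx21 (159) and Gar1 (151).

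RNA-binding proteins formed the next large group. Of 72 splicing and RNA-binding factor genes, 16 were overlapped (22.2%, 14.2 to 33.1%), among them Hnrnpk (375 and 186) and Hnrnpa0 (307 and 196). A further 8 of that list were left out for width, among them Srsf6 (232) and Hnrnpa3 (205). Of 24 genes whose products resolve R-loops, 3 were overlapped: the helicase gene Dhx9 (362 and 308 for its 2 peaks), Srsf1 (176) and Ddx21. Their share, 12.5% (4.34 to 31.0%), rests on few genes.

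Genes with short-lived transcripts were also common. Of 55 immediate early and fast-turnover genes, 14 were overlapped (25.5%, 15.8 to 38.3%). The highest were Id1, an inhibitor of basic helix-loop-helix factors (285 and 175), Ier5 (278 and 114) and Mcl1, which blocks apoptosis (273 and 107), and Myc (118), Jund (224) and Egr1 (101) were among the others. In the integrated stress response list 4 of 22 were overlapped, Ddit4 (251), Slc3a2 (164, under a peak assigned to Snhg1), Ppp1r15a (103) and Xbp1 (100), while Atf4 (373) had a peak too wide for the rule.

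Histone genes gave 8 of 75 (10.7%, 5.50 to 19.7%), led by H3f3b (708 and 303), H1f4 (610 and 234) and H2az1 (294 and 174). The list did not hold every histone gene: H2aj, named after its value was seen, had a peak of 306 and 173. Among the listed genes H2ac20, H2ac21 and H2bc21 shared 1 peak (111). Other lists had smaller counts. Proteasome and ubiquitin genes gave 6 of 48, led by Ubb (452), Sqstm1 (283) and Ube2d3 (231), chromatin regulators 4 of 36 (Ezh2 with 238, Hmgb2 with 207, Hmgb1 with 163 and Bptf with 117), and RNA polymerase II machinery 4 of 26, led by Pcf11 (195), Ccnt2 (118) and Hexim1 (115). Cytoskeleton genes gave 5 of 35, led by Myl12a (336), Tmsb10 (189) and Cfl1 (182, under a peak assigned to Snx32). A further 8 of that list, Actb (513) among them, exceeded the width limit.

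Other lists had shares of 10% or less. Of 91 heat shock and chaperone genes 5 were overlapped (5.49%, 2.37 to 12.2%), led by Hspd1 (176), Hspa8 (166) and Canx (161). Of 40 cell cycle genes 3 were: Cdk4 (165), Mcm6 (126) and Ccnb1 (112). The p53 targets gave 2 of 20, Mdm4 (234) and Mdm2 (117), and the nuclear long noncoding RNAs 1 of 12, Kcnq1ot1 (102), while Malat1 (187) and Neat1 (214) were too wide. None of 14 glycolysis genes and 24 sterol and fatty acid synthesis genes was overlapped, although Gapdh (191), Pkm (113) and Fasn (109) held wide peaks of 100 or more.

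Liver genes and markers of other liver cells were too few to tell their shares from the 2.47% of all protein-coding genes. Of 30 apolipoprotein and plasma protein genes, only Alb was overlapped (3.33%, 0.591 to 16.7%), Rbp4 (102) held a peak too wide for the rule, and none of 23 hepatocyte metabolism genes, 17 hepatocyte transcription factors or 7 fetal liver and hepatoma markers was. The highest HEPA1-6 score was 49 (Acsl1) in the metabolism list and 55 (Afp) among the fetal liver and hepatoma markers. Of 37 markers of other liver cells 1 was overlapped: Dcn, the proteoglycan decorin made by fibroblasts, held a peak of 5704 bp (112 and 67). In the pooled liver-labelled list, whether fewer cells of a type or less signal per cell gives a low score cannot be told apart. Cd68, a macrophage marker next to Eif4a1, lay under a wide peak shared with that gene (297).

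**Figure D3:**
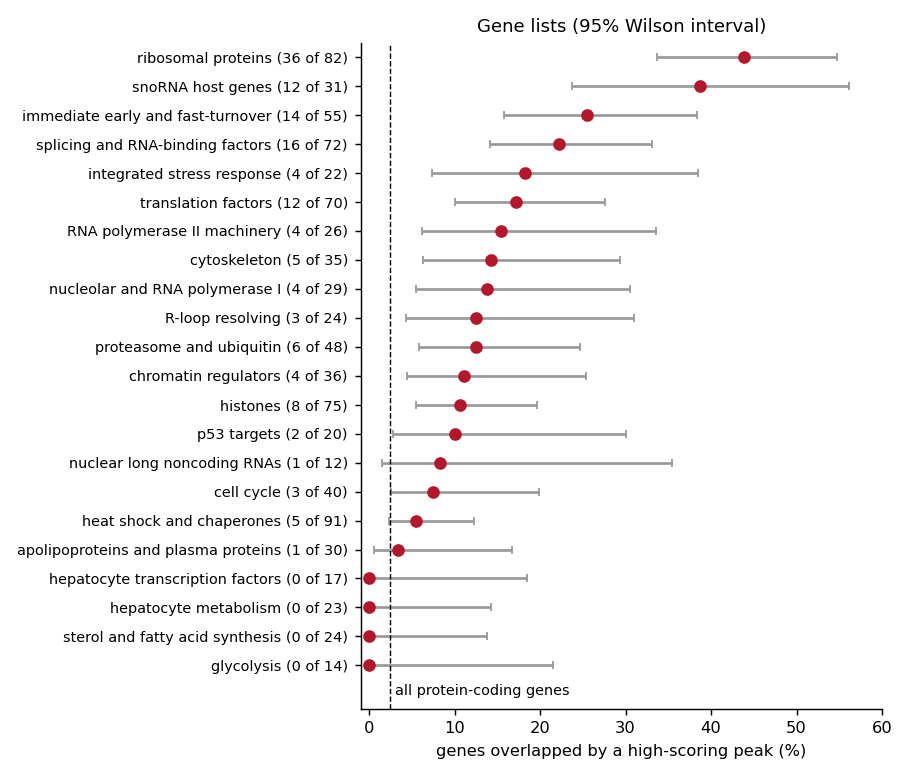
Share of the genes of each list (x axis, %; lists of 12 or more genes) that are overlapped by a high-scoring peak, with 95% Wilson intervals. The dashed line is the share of all autosomal protein-coding genes, 2.47%. Ribosomal protein genes (36 of 82) and snoRNA host genes (12 of 31) stand highest, and 4 lists have no gene.

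MicroRNA genes lay under 11 of the 482 peaks (2.28%, 1.28 to 4.04%), against 1.66% of peaks scoring 50 to 99 (1.12 to 2.43%) and 0.523% of all those below 100. In this share the high-scoring peaks could not be told from those of 50 to 99. MicroRNAs of conserved families under high-scoring peaks are shown, chosen after their values were seen. Bases 2 to 8 (the seed that pairs with targets) are in capitals, and sequences are from RefSeq (GRCm38.p6).
mmu-let-7d-5p, chr13:48536078-48536099, minus strand: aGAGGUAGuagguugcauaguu
mmu-let-7i-5p, chr10:122985698-122985719, minus strand: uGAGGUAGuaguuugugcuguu
mmu-miR-22-3p, chr11:75463772-75463793, plus strand: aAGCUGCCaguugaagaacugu
mmu-miR-26b-5p, chr1:74394324-74394344, plus strand: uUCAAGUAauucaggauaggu
Of these, let-7d and let-7i share their seed. The peak at Mirlet7d had a HEPA1-6 score of 159 and a liver-labelled score of 60, and that at Mirlet7i 140 and 89. The peak over Mir22 and its host gene Mir22hg scored 123 and 70, and that over Mir26b and its host Ctdsp1 102 and 45.

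The very top of the ranking held many narrow peaks away from gene boundaries. Of the 20 highest-scoring peaks, all with a score of 515 or more, 10 were narrower than 1000 bp, and all 10 lay inside a gene away from both boundaries. Of all 482 peaks, 57 were that narrow, and 43 of these (75.4%, 62.9 to 84.8%) lay in the body only. Among the 425 wider peaks 82 did (19.3%, 15.8 to 23.3%). Narrow peaks of lower score also lay mostly in the body, 73.1% of those scoring 50 to 99 and 88.1% of all those below 100. Narrow peaks made up 11 of the 21 peaks with a score of 500 or more.

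The highest peak of all lay at Rn18s-rs5 on chromosome 17 (chr17:39843009-39848814, score 4359), annotated as a pseudogene and named for 18S ribosomal RNA. It was followed by a peak at the 3′ end of Wls, which codes for a carrier of Wnt proteins (chr3:159938270-159939680, 3631). Then came narrow peaks in the bodies of the long noncoding RNA gene Gm36876 (chr11:109011642-109012107, 2184), of Cdk8, a kinase of the Mediator complex (chr5:146260514-146261354, 2048), and of Camk1d, a calmodulin-dependent kinase (chr2:5379053-5379380, 1923). All 5 also scored high in the liver-labelled list, with 3675, 1070, 1180, 1853 and 922.

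Of the next peaks, Myo3a, a myosin of the inner ear (1865, liver-labelled 1675), was 2348 bp wide. Filip1l (1820 and 2397), 4930563M21Rik (1768 and 753) and Gucy1a2, a subunit of guanylate cyclase (1474 and 933), were narrower than 500 bp. Gm10925 (1364 and 575) is a pseudogene on chromosome 1 whose peak also covered Gm10222, and Rdm1 (1038 and 454) held its peak at the start. Further narrow peaks lay in Jarid2, a partner of Polycomb repressive complex 2 (805 and 988), Zc3h7a (680 and 990), Gphn, the gene of the synaptic protein gephyrin (529 and 500), and Arhgap21 (527 and 364). Hhat, which acylates Hedgehog proteins, held a wider peak (515 and 259).

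The 8 of the 20 that reached a gene boundary were those at Rn18s-rs5, Wls, Gm10925 and Rdm1 and, with scores of 708, 673, 670 and 610, those at H3f3b, Eif4a2, Alb and H1f4. Above a score of 1000, the list thus held none of the ribosomal, histone or translation genes that led the gene lists. Mappability and copy number were not tested at any peak, narrow or wide, as no genome sequence was used. This includes the wider pseudogene peaks at Rn18s-rs5 and Gm10925.

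Nearly every high-scoring peak was also in the liver-labelled list. Of the 482, 476 (98.8%, 97.3 to 99.4%) overlapped a liver-labelled interval by at least 1 bp, against 29.8% of all peaks of the rule at any score. The share rose with the HEPA1-6 score, from 9.15% at 10 to 19 and 40.8% at 20 to 49 to 86.8% at 50 to 99, 98.4% at 100 to 199 and 100% (113 of 113) at 200 or more. Requiring the liver-labelled interval to cover 50% of both peaks lowered the share of the 482 to 86.3%.

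The difference from peaks below a score of 100 was present within each width class. Below 1000 bp, 52 of 57 high-scoring peaks (91.2%, 81.1 to 96.2%) and 10.3% of the peaks below a score of 100 (9.71 to 10.8%) had a liver-labelled interval. From 4000 bp on the shares were 100% (170 of 170) and 83.7%. Peaks of 50 to 99 gave 48.4% below 1000 bp and 85.3% from 1000 to under 2000 bp. They gave 98.0% from 2000 to under 4000 bp and 99.8% from 4000 bp on. At these larger widths near-complete overlap was thus not particular to the high-scoring peaks. High-scoring peaks thus differed most from the others where peaks were narrow.

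**Figure D4:**
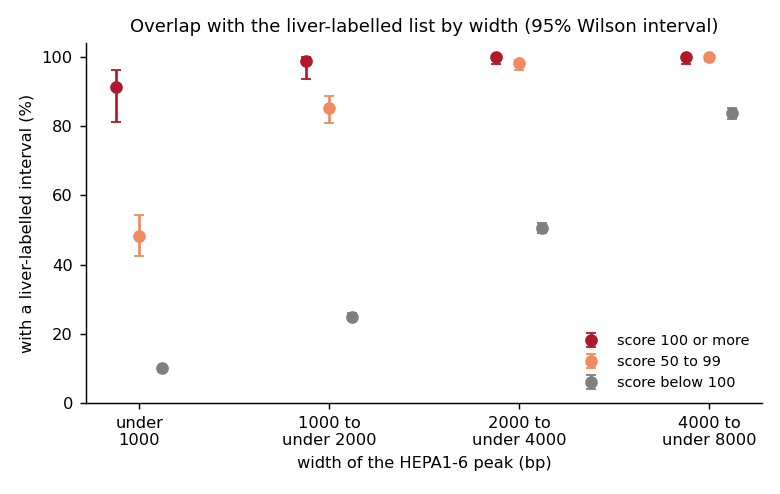
Share of genic HEPA1-6 peaks (y axis, %) that overlap a liver-labelled interval, by width of the HEPA1-6 peak (x axis, bp) and score, with 95% Wilson intervals; scores below 100 include those of 50 to 99. For high-scoring peaks the share is 91.2% below 1000 bp and 100% from 2000 bp on, while below a score of 100 it runs from 10.3% to 83.7%.

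The overlapped intervals were also strong in their own list. Their scores had a median of 71 (interquartile range 53 to 102.25, range 26 to 3675), where the whole liver-labelled list had a median of 22. None fell below that median, and 127 (26.7%) scored 100 or more. Under HEPA1-6 peaks of 50 to 99, 89.6% of the intervals stood at or above that median and 0.458% scored 100 or more. Over all HEPA1-6 scores these shares were 55.6% and 1.86%. By rank, the best overlapping interval stood at a median percentile of 96.0 of its list (lowest 64.0). Over the 476 pairs the ranks of the scores went together (Spearman's rho 0.715, across pairs of peaks that share their locus and width). The same rho was 0.394 for HEPA1-6 scores of 50 to 99 and 0.618 over all scores. Of the 169 liver-labelled peaks that meet the same rule in their own list, 126 overlapped one of the 482.

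**Figure D5:**
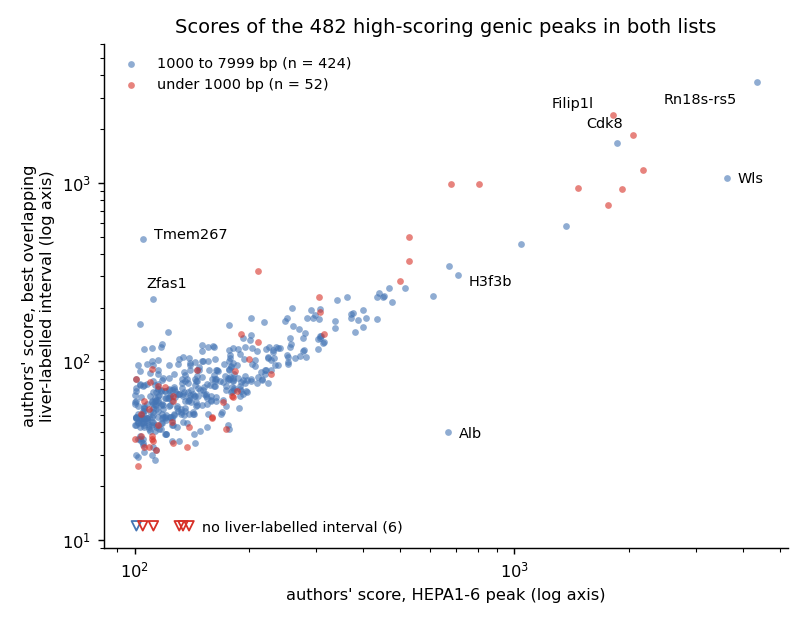
Authors' score of each high-scoring HEPA1-6 peak (x axis, log) against that of the best overlapping liver-labelled interval (y axis, log), by width of the HEPA1-6 peak, with the 6 peaks without an interval as open triangles at the foot. Scores rise together, from medians of 141.5 and 71, while Alb (670 and 40) lies below the cloud and Tmem267 (105 and 487) above it.

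Only 6 high-scoring peaks had no liver-labelled interval, also when intervals within 1 kb were allowed. All 6 lay in the body of their gene and away from its boundaries, all scored below 140, and their widths ran from 264 to 1454 bp. Of the 5 described here, 2 lay in Tusc3, a subunit of the oligosaccharyltransferase (chr8:39155375-39155806, score 134), and Mettl5, a methyltransferase of 18S ribosomal RNA (chr2:69873560-69873999, 131). The other 3 lay in Nrg1, the growth factor neuregulin 1 (chr8:32585505-32585864, 112), Ccdc39, a gene of motile cilia (chr3:33817133-33817396, 105), and Egfr, the epidermal growth factor receptor (chr11:16761873-16763326, 101).

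Most of these genes held liver-labelled peaks elsewhere. Egfr held 7, the highest with a score of 44 under the gene's other high-scoring peak (115), and 24 other HEPA1-6 peaks in all, that one included. Tusc3 held 2, of which that with a score of 91 lay under the gene's other high-scoring peak (111), 2173 bp from the peak without an interval. Nrg1 held 4, with scores of 14 to 37, all far downstream in a gene of 1084158 bp.

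Mettl5 and Ccdc39 held none within their boundaries. At Mettl5 the peak was the only HEPA1-6 peak of the gene, it lay on the plus strand while the gene is annotated on the minus strand, and the nearest liver-labelled interval was 23019 bp away. At Ccdc39 the nearest was 7161 bp away from the peak, and a second HEPA1-6 peak (50) lay at the gene's edge. Unlike Mettl5, Ccdc39 had a liver-labelled peak within 1 kb of the gene. Of all 460 assigned genes, 5 (1.09%, 0.465 to 2.52%) held no liver-labelled peak within their boundaries, against 38.0% of genes with a peak of the rule at any score. The other 3 were Alyref2, Snhg8 and Mirlet7d, whose high-scoring peak met a liver-labelled interval just outside the gene.

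The other extremes were read from the ranks and named after their values were seen. The lowest liver-labelled scores under a high-scoring peak were 26 at Ndufaf4, an assembly factor of respiratory complex I (102 in HEPA1-6), 28 at Cbarp (113), 29 at Pex10, a peroxisome biogenesis gene (102), and 30 at H2-DMa, a chaperone of antigen presentation (111), and at Gm21092 (101). These HEPA1-6 scores lay close to the threshold. Alb was the exception among high scores: its peak over the transcript end (chr5:90474303-90476903) had a HEPA1-6 score of 670 against 40, while its second peak (chr5:90472694-90473107) had 109 against 54.

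In the opposite direction, 12 of the 482 peaks stood at a higher percentile in the liver-labelled list than in HEPA1-6. They included Tmem267 (HEPA1-6 105, liver-labelled 487), Zfas1, a host of small nucleolar RNAs (112 and 225), Lsm14a (103 and 162), Ncl at its second peak (122 and 146), Fth1, the ferritin heavy chain (111 and 119), the splicing factor Srsf3 (118 and 126) and Filip1l (1820 and 2397). The score rule left little room for such cases, as the lowest HEPA1-6 percentile among the 482 peaks was 97.49. For Filip1l the difference was only 0.0028 percentile points. With 1 list per source these differences in rank have no replicate check.

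The strand of a peak was mostly that of its gene. Of 368 high-scoring peaks in genes with an annotated strand, 311 (84.5%, 80.5 to 87.8%) had the gene's strand. The share was 85.6% at scores of 50 to 99 (83.5 to 87.5%) and 90.7% over all those below 100. Of the 57 high-scoring peaks on the opposite strand, 37 touched 2 or more genes, as at Rpl12, where the peak also covered Lrsam1. Among high-scoring peaks that touched 1 gene only, 91.6% (87.4 to 94.5%) had its strand, against 93.5% below a score of 100. Ubb and Myo3a were among the 20 such high-scoring peaks that did not.

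Between the lists, 397 of 476 high-scoring peaks (83.4%, 79.8 to 86.5%) had the strand of the overlapping liver-labelled interval, against 88.2% of all peaks of the rule. Peaks that touched 1 gene shared the strand in 88.8% (84.8 to 91.9%) and peaks that touched 2 or more genes in 73.8% (66.8 to 79.8%). Strand disagreement was thus more frequent at peaks that touched more than 1 gene, which include small RNA genes inside their hosts. Width was not held fixed in this split. High-scoring peaks touched 2 or more genes in 35.7% of cases (31.5 to 40.1%), against 12.03% below a score of 100. From 2000 to under 4000 bp of width these shares were 30.1% and 18.2%.

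Edges often coincided to the base. Of the 476 peaks with an interval, 240 (50.4%) had the same start as the best overlapping interval, 255 (53.6%) the same end and 125 (26.3%, 22.5 to 30.4%) both. At scores of 50 to 99 these shares were 42.9%, 41.9% and 15.7% (13.8 to 17.8%). Below a score of 100 they were 30.2%, 29.8% and 7.44% (6.84 to 8.08%). The liver-labelled interval lay wholly inside the HEPA1-6 peak in 438 of 476 cases (92.0%). That share was 92.5% at scores of 50 to 99 and 85.1% over all scores, so it did not set the high-scoring peaks apart. The interval's width was a median of 0.893 of the HEPA1-6 width, against 0.661 at scores of 50 to 99 and 0.468 below 100. By shared edges and relative width, high-scoring peaks were thus called over nearly the same span in both lists more often than others. H3f3b and the narrow peak in Flywch2 (500 and 281) were called with identical edges in both.

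High-scoring peaks were spread over all 19 autosomes, from 8 on chromosome 14 to 62 on chromosome 1. Chromosome 1 held 12.9% of them and 8.55% of the peaks below a score of 100, and chromosome 5 held 3.11% and 6.25%. Chromosome 15 held 7.26% and 6.93%.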

How the data were processed

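S9.6 immunoprecipitates and inputs of HEPA1-6 cells and mouse liver were sequenced as paired-end reads, with 10 PCR cycles for immunoprecipitates and 4 for inputs, per the labels' protocols. The submitters' processing notes name CASAVA 1.8.2, cutadapt, Bowtie2, bedtools, SAMtools, MACS2 and mm10, without roles. The authors deposited 1 peak list per source with a score per peak. The scale of this deposited score, the thresholds and the source of the strand are not given in the sources used here, so scores were compared by rank within a list. Depth is unknown, and RNase H1 libraries were not analysed here.

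The members and gene lists were chosen with earlier results of these data known. Peaks were laid over RefSeq genes of GRCm38.p6 and assigned to the gene with most overlapping bases (ties: protein-coding, then shorter). Gene strand came from the RefSeq promoter table, or, for 114 of the 482 peaks, from the peak. Liver overlap needed 1 bp, and position used 1 kb windows. Of the list entries, 14 were not matched to an autosomal gene. Named are the 20 highest peaks, those without a liver-labelled interval (up to 12), up to 3 per list (or all few members), genes with 3 or more peaks, 3 peaks on either side of the threshold and all markers. Interval functions were tested on simulated data. Python 3.11.15, pandas 2.3.3 and statsmodels 0.14.6 were used. A few genes that meet this rule are not reported here.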

Additional observations from a re-analysis of the deposited data

How the results depend on the processing

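Of 40 alternatives for 6 results, 18 gave a value inside the 95% interval of the result, or within 1.5 times a count, and 22 moved; 6 alternatives were chosen after seeing the data. A minimum score of 50 gave 1992 peaks, of which 89.7% had a liver-labelled interval, 44.5% lay at the start, 26.6% at the transcript end and 94.0% in protein-coding genes. A minimum of 200 gave 113 peaks, with 100% and, at the start, 67.3%. Widths below 2000 bp gave 95.7%, 38.1% at the start and 17.99% at the end, and widths of 1000 bp or more (an added alternative) 99.8% and 64.9%. For the liver-labelled overlap, 50% of both peaks gave 86.3%, 50% of the HEPA1-6 peak 86.5%, and the same strand 84.0%. Placing a peak by its midpoint, which by construction meets fewer windows, gave 30.7% at the start and 16.6% at the end, and any RefSeq start of the gene (added) 67.9% of 368 peaks. Genes without a liver-labelled peak were 0.217% with 1 kb on both sides and 3.37% over all 713 genes overlapped. Any protein-coding gene overlapped gave 92.9%. The share at the start exceeded that at the end in each setting run for both. No paired analysis was possible because the data are 1 pooled list per source, so no replicate could be left out or blocked. The unknown depth limits the 6 peaks without an interval: a weaker liver-labelled signal would not be listed.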
